A study of Mus musculus with 30 samples.

Results

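Cyclooxygenase-2 (COX-2) is one of the enzymes that turn arachidonic acid into prostaglandin precursors, and in the brain it is made by neurons of both the hippocampus and the cerebral cortex. The hippocampus is built of densely packed pyramidal and granule cell layers, the cortex of layered neurons with long-range projections, and the transcripts that set these tissues apart are mostly those of neuron subtypes. The comparison described here asks which transcripts differed between hippocampus and cortex when COX-2 was absent. It uses 6 of the 30 arrays of the series, 3 of hippocampus and 3 of cerebral cortex from COX-2-/- mice (labelled COX-2 KO), and all 16896 probes of the array. The mice were 12 weeks old, on a mixed strain background, and were born of COX-2-/- males and COX-2+/- females. For context the same region difference was taken in wild-type mice of the COX-2 line (COX-2+/+, from wild-type matings) and in heterozygous mice (labelled COX-2 Hetero), with 3 arrays of each region in each genotype. The null allele was present in every cell from conception, and the level of the deleted gene was not analysed here, as no probe with the symbol Ptgs2 or Ptgs1 was found.

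Radiolabelled cDNA of each tissue was hybridised to a nylon membrane of cDNA spots, and the values are the authors' Z scores. A Z score is the natural log intensity of a spot minus the mean of its array, in units of the SD of that array, and differences in Z cannot be read as folds. A probe was taken as expressed when its mean Z over the 6 arrays was above 0, which held for 8032 probes. Of the 16896 probes, 9663 carry 1 gene symbol, and only those are named. Across all probes the arrays of cortex correlated with r between 0.989 and 0.992, those of hippocampus with r between 0.985 and 0.988, and arrays of different regions with r between 0.983 and 0.990. The 3 hippocampus arrays did not correlate better with each other than with cortex, and hippocampus replicate 3 correlated best, at 0.987, with an array of wild-type cortex among the other 17 arrays of the COX-2 line. Hippocampus replicate 1 correlated best with an array of wild-type hippocampus. The methods name separate mice in each wild-type and null group but also triplicate arrays of every sample, so p-values refer to array-to-array spread, which may be partly technical.

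Region markers could check the dissection only in part. Of 43 listed genes of hippocampal neurons 15 have a probe with 1 symbol and 7 were expressed, and of 47 listed genes of cortical neurons 13 have a probe and 4 were expressed, while classical markers such as Prox1, Wfs1 and Tbr1 were found on no such probe. Averaged over the 7 hippocampal genes, the mean Z was 0.512 to 0.579 on the hippocampus arrays and 0.502 to 0.530 on the cortex arrays, and over the 4 cortical genes it was 0.437 to 0.540 against 0.433 to 0.478. The ranges of both lists overlapped between the regions. Of the 7 hippocampal genes 4 were higher in hippocampus and 3 lower, from -0.0737 to 0.224, and of the 4 cortical genes 3 were higher in hippocampus and 1 lower. Pkp2, a desmosomal plaque protein listed for hippocampal neurons, met the z ratio rule described below, with a difference of 0.224. Calb1, the calcium buffer calbindin of granule cells, differed by 0.0308. In limma no gene of either list passed the test.

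Between hippocampus and cortex of COX-2-/- mice, 37 probes passed limma's test at an adjusted p under 0.05, which is 0.461% of the 8032 tested. Of these, 18 were higher in hippocampus (0.224% of those tested) and 19 lower (0.237%), and 1323 probes (16.5%) had an unadjusted p under 0.05. Probes higher in hippocampus included 1 each of Nsf, Ap2a2, Actb, Rsf1 and Ndufs1, and those lower in hippocampus included 1 each of Kif3a, Gna14, Actl6a, Pcyt1a and Mtdh. The changes were small. Their median size was 0.304 in Z, with a range of 0.176 to 0.552, against an SD of 0.0901 over the differences of all tested probes. On all 37 probes (100%) the 3 hippocampus arrays did not overlap with the 3 cortex arrays, which held for 18.6% of tested probes (9.66% higher in hippocampus and 8.98% lower), and an exact permutation test of 3 arrays against 3 gives no p below 0.1. By symbol, 20 of the 37 (54.1%, against 56.7% of tested probes) name 1 gene, 10 higher and 10 lower, and the other 17 carry no symbol or several. Naming these 20 asked for groups without overlap, so the lack of overlap stated for each of them below is not a separate result.

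The count of 37 rested on single arrays. Without hippocampus replicate 1 it was 290, with all 37 among them. Without hippocampus replicate 2 or 3 it was 5 and 6, and without cortex replicate 1, 2 or 3 it was 0, 2 and 12 (1175 at an unadjusted p under 0.05 for the count of 0). In the 6 arrays fitted alone limma called 0 probes, with 845 at an unadjusted p under 0.05, whereas the fit of 18 arrays takes its spread from the other 12 arrays of the COX-2 line too. Of the 20 named probes all were called without hippocampus replicate 1, Actb and Iqgap1 without hippocampus replicate 2, Mtdh without hippocampus replicate 3, none without cortex replicate 1, Aldh6a1 without cortex replicate 2, and Mettl18, Actb, Abhd17b and Gna14 without cortex replicate 3. No named probe reversed its direction when any 1 of the 6 arrays was left out. This was fixed in advance, since naming asked for groups without overlap.

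**Figure D1:**
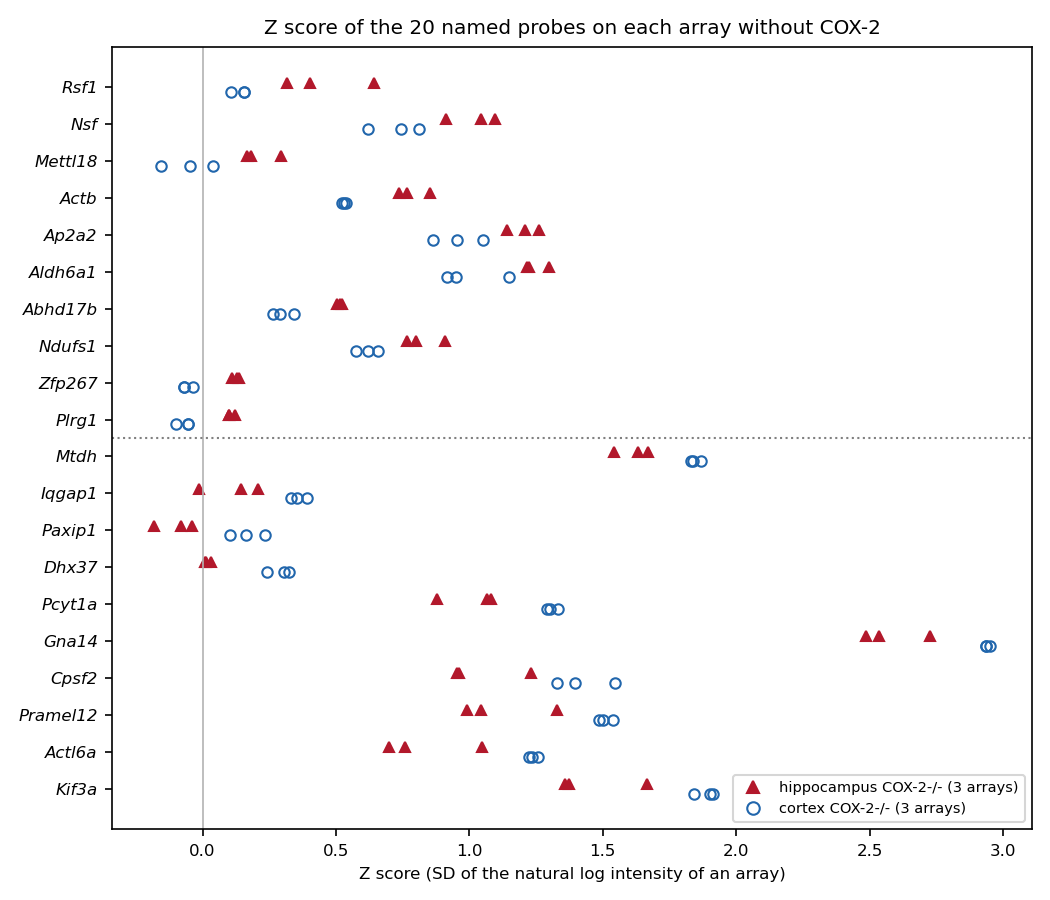
Z score of the 20 named probes (rows) on each of the 6 arrays, with hippocampus as triangles and cortex as open circles. The dotted line parts the 10 probes higher in hippocampus from the 10 lower. In no row do the groups overlap, which was a condition for being named.

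Nsf encodes the ATPase that takes SNARE complexes apart after a vesicle has fused. Its probe read 0.913, 1.04 and 1.10 on the hippocampus arrays and 0.743, 0.809 and 0.622 on the cortex arrays. Every hippocampus array lay above every cortex array, with a difference of 0.293 (SE 0.0526, limma adjusted p = 0.0208). A dimmer Nsf probe differed by 0.186 in the same direction and met the z ratio rule but not the limma threshold (adjusted p = 0.0940). Ap2a2, an alpha subunit of the AP-2 adaptor that gathers cargo into clathrin-coated pits, read 1.26, 1.14 and 1.21 in hippocampus against 0.862, 1.05 and 0.952 in cortex. The lowest hippocampus array stood just above the highest cortex array, and the difference was 0.249 (SE 0.0528, limma adjusted p = 0.0486). Abhd17b, a depalmitoylating enzyme of synaptic proteins, read 0.503, 0.514 and 0.523 against 0.264, 0.290 and 0.344, a difference of 0.214 (SE 0.0377, adjusted p = 0.0208), and its arrays were the most tightly grouped of the 10 hippocampus sets.

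Actb, the cytoplasmic beta-actin of the cytoskeleton, had the smallest adjusted p of the named genes that were higher. The probe read 0.767, 0.734 and 0.851 in hippocampus and 0.530, 0.522 and 0.537 in cortex, a difference of 0.254 (SE 0.0394, limma adjusted p = 0.0183). It is 1 of 7 Actb probes and not the brightest. The other 6 differed by -0.0373 to 0.267, 4 of them in the same direction, and none passed limma, with the brightest probe at -0.0373. A second probe, at 0.267, met the z ratio rule. Actins are close in sequence, so which of their transcripts this spot measured is uncertain.

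The remaining genes higher in hippocampus serve metabolism and the nucleus. Rsf1, the histone-binding subunit of a chromatin remodeller, had the largest difference of the 10 at 0.315 (SE 0.0653, adjusted p = 0.0427). Its hippocampus arrays spread from 0.315 over 0.404 to 0.643, with replicate 3 the highest, while the cortex arrays read 0.154, 0.156 and 0.105. Ndufs1, the large iron-sulfur subunit of respiratory complex I, read 0.765, 0.801 and 0.908 against 0.657, 0.619 and 0.575, and differed by 0.208 (SE 0.0409, adjusted p = 0.0332). Aldh6a1, a mitochondrial dehydrogenase of valine breakdown, read 1.22, 1.22 and 1.30 against 0.951, 1.15 and 0.916, with cortex replicate 2 close to the hippocampus arrays, and differed by 0.240 (adjusted p = 0.0492). Mettl18, a histidine methyltransferase, differed by 0.269, the zinc finger gene Zfp267 by 0.182 and Plrg1, a spliceosomal protein, by 0.176, with adjusted p of 0.0332, 0.0360 and 0.0320. Mettl18, Zfp267 and Plrg1 had mean Z scores under 0.1, near the mean of an array, and Aldh6a1 and Zfp267 lost their calls once a running median over neighbouring rows of the table was taken off. Every cortex array of Zfp267 and Plrg1 was under 0, so both probes passed the expression limit through hippocampus alone.

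Kif3a, a motor subunit of kinesin-2 that carries cargo along microtubules and into cilia, showed the largest fall among named probes. The cortex arrays read 1.90, 1.84 and 1.91 and the hippocampus arrays 1.66, 1.36 and 1.38. Hippocampus replicate 1 lay nearer to cortex than the other two, though still below every cortex array, and the difference was -0.420 (SE 0.0737, limma adjusted p = 0.0208). Kif3a has 2 other expressed probes, with mean Z of 1.33 and 0.0532 against 1.68, which differed by 0.0804 and -0.0291 and did not pass. Gna14, an alpha subunit of the Gq class of G proteins, was the brightest of the 20 and read 2.94, 2.95 and 2.94 in cortex against 2.73, 2.54 and 2.49 in hippocampus. The cortex arrays were nearly identical, hippocampus replicate 1 again lay nearest to them, and the difference was -0.359 (SE 0.0570, limma adjusted p = 0.0183).

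Kif3a and Gna14 belong to the named genes whose difference passed in all 3 genotypes of the COX-2 line, given further on, and for these the sequence before the transcription start was at hand for 2 of 4 (RefSeq, GRCm38.p6). Shown are the 250 bases before the start given in the RefSeq promoters, 5′ to 3′ on the plus strand, at chr11:53567119-53567368 for Kif3a and chr19:16435417-16435666 for Gna14, with motif matches in capitals. For Kif3a that start lies inside the annotated gene, which begins at 53565701, so the stretch is not upstream of its first annotated base.
Kif3a: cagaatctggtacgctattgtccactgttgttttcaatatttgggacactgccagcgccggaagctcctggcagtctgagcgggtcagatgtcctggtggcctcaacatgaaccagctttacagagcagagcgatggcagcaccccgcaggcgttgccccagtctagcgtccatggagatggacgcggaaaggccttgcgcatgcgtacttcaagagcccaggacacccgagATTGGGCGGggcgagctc
Gna14: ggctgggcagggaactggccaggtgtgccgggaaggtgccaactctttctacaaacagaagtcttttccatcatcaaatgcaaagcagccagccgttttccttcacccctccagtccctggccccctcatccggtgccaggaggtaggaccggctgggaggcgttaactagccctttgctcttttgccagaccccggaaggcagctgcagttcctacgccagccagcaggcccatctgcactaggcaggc
Both strands were searched for the CCAAT box (CCAAT), the GC box (GGGCGG), the TATA box (TATAAA), the E-box (CACGTG) and the cyclic AMP response element (TGACGTCA). The Kif3a stretch holds a CCAAT box read on the other strand, beginning 18 bases before the start, and a GC box beginning 15 bases before it, which overlap in the capital run, and none of the other letters. The Gna14 stretch holds none of the 5. A CCAAT box occurs in 33.8% of all 32851 promoters given, and 32.7% hold a GC box, 12.4% a TATA box, 6.02% an E-box and 1.55% the response element, and these matches describe letters only.

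Other genes lower in hippocampus act on chromatin and RNA. Actl6a, the actin-related subunit of the BAF chromatin remodeller of progenitor cells, read 1.05, 0.759 and 0.70 in hippocampus against 1.22, 1.24 and 1.26 in cortex, a difference of -0.403 (SE 0.0726, limma adjusted p = 0.0208). Cpsf2, a subunit of the complex that cleaves the 3′ ends of messenger RNA, read 1.23, 0.959 and 0.954 against 1.55, 1.33 and 1.40 and differed by -0.375 (SE 0.0793, adjusted p = 0.0486). Both sets kept apart, with hippocampus replicate 1 the nearest to cortex in each. Dhx37, a helicase of ribosome assembly, lay at 0.0130, 0.0309 and 0.00740 in hippocampus and at 0.322, 0.243 and 0.305 in cortex, a difference of -0.273 (SE 0.0486, adjusted p = 0.0208). Here all hippocampus arrays sat close together at the mean of their array. A brighter Dhx37 probe differed by 0.00204. Paxip1, an adaptor of the DNA damage response, differed by -0.268 (adjusted p = 0.0332), while a brighter probe of it stood 0.136 higher in hippocampus and did not pass. On the called Paxip1 probe every hippocampus array was under 0, so it passed the expression limit through cortex alone.

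Pcyt1a, the rate-controlling enzyme of phosphatidylcholine synthesis, read 1.08, 1.07 and 0.880 in hippocampus against 1.33, 1.29 and 1.30 in cortex, a difference of -0.298 (SE 0.0545, limma adjusted p = 0.0208). Iqgap1, a scaffold that links small GTPases to actin, read 0.145, 0.209 and -0.0140 against 0.333, 0.354 and 0.390 and differed by -0.245 (SE 0.0478, adjusted p = 0.0332). Mtdh, a membrane and RNA-binding protein, read 1.63, 1.54 and 1.67 against 1.84, 1.87 and 1.83 and differed by -0.231 (SE 0.0413, adjusted p = 0.0208). In all 3 genes cortex was the tighter group. A second bright Mtdh probe differed by 0.221 in the opposite direction (adjusted p = 0.209), and Iqgap1 lost its call after the row correction. Pramel12, a member of the PRAME family, read 1.33, 1.04 and 0.992 against 1.49, 1.5 and 1.54, a difference of -0.387 (SE 0.0763, adjusted p = 0.0332).

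Other probes of the same genes were seldom called, as were tested probes in general (0.461% by limma and 4.66% by the z ratio rule). Of the 20 named genes, 8 have another expressed probe, 14 such probes in all, of which 7 differed in the same direction and none passed limma. No gene with 2 or more expressed probes (535 genes) had all of them called by limma, and 2 genes, Nsf and Cst3, had all of theirs past the z ratio rule. Cst3, the cysteine protease inhibitor cystatin C that astrocytes secrete, read 1.37, 1.34 and 1.35 against 1.06, 1.24 and 1.13 on its brighter probe, with differences of 0.211 and 0.209 on the 2 probes and limma adjusted p of 0.137 and 0.205.

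Position in the table went with both level and difference. Across all probes, rows 22 apart had mean Z scores that correlated with r of 0.546, and rows 44 apart with r of 0.512, against at most 0.258 at any other distance examined. The region differences correlated with r of 0.345 at 22 rows and at most 0.308 at those other distances. Probes are not independent replicates, and these values describe the table. Actl6a, Gna14 and Pramel12 occupy rows 3779, 3801 and 3823, in steps of 22, and Gna14 in the middle is the brightest of them with a mean Z of 2.76 against 1.04 and 1.31. The probe 22 rows before Mettl18 was called in the same direction as well, with a difference of 0.288. In all, 5 of the 37 called probes (13.5%) had another called probe of the same direction 22 rows away, against 0.436% of tested probes. What part this spacing had in the 3 falls was not tested. The probes 22 rows from Kif3a had mean Z scores of -0.362 and -0.323 and differences of -0.188 and -0.204, and those 22 rows from Actb differed by 0.0131 and 0.0270.

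The region differences of COX-2-/- mice were next set beside those of the other genotypes, which share no array with them. Of the 37 probes, 32 had the same sign in COX-2+/+ mice (86.5%, against 46.2% of tested probes) and 31 in heterozygous mice (83.8%, against 53.6%). Limma called 366 probes of 8011 between the regions of COX-2+/+ mice (4.57%) and 1063 of 8008 in heterozygous mice (13.3%). Of the 37, 16 were also called with the same sign in COX-2+/+ mice, which is 43.2% of the 37 and 4.37% of the 366. In heterozygous mice 15 were, 40.5% of the 37 and 1.41% of the 1063. The background for these is 4.49% and 13% of the probes tested in COX-2-/- mice. All 18 arrays share 1 estimate of the spread in the model.

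Of the 20 named probes, 4 passed in all 3 genotypes, namely those of Actb, Kif3a, Gna14 and Mtdh. Actb differed by 0.254 in COX-2-/-, 0.443 in COX-2+/+ and 0.282 in heterozygous mice, with adjusted p of 0.0183, 2.96e-05 and 0.000358. Kif3a differed by -0.420, -0.389 and -0.484, with adjusted p of 0.0208, 0.00996 and 0.000828. Gna14 differed by -0.359, -0.223 and -0.325, and Mtdh by -0.231, -0.252 and -0.193. For none of the 4 did limma find that the difference in COX-2-/- mice differed from that in COX-2+/+ mice (adjusted p of 0.0875, 0.884, 0.338 and 0.863). Rsf1, Mettl18, Ap2a2, Aldh6a1, Abhd17b and Ndufs1, all higher in hippocampus, passed in COX-2-/- and COX-2+/+ mice and were at 0.0241 to 0.101 in heterozygous mice, where none passed. Actl6a, Pramel12, Dhx37 and Zfp267 passed in COX-2-/- and heterozygous mice. The named probes of Nsf, Plrg1, Cpsf2, Pcyt1a and Iqgap1 passed in COX-2-/- mice alone of the 3 tests, which by itself does not show a difference between genotypes. The dimmer Nsf probe passed limma in COX-2+/+ mice (0.429, adjusted p = 0.000813) and heterozygous mice (0.267, adjusted p = 0.00344), and not in COX-2-/- mice. Paxip1 was under the expression limit in the other genotypes and was not tested there, with differences of 0.160 in COX-2+/+ and 0.0122 in heterozygous mice.

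**Figure D2:**
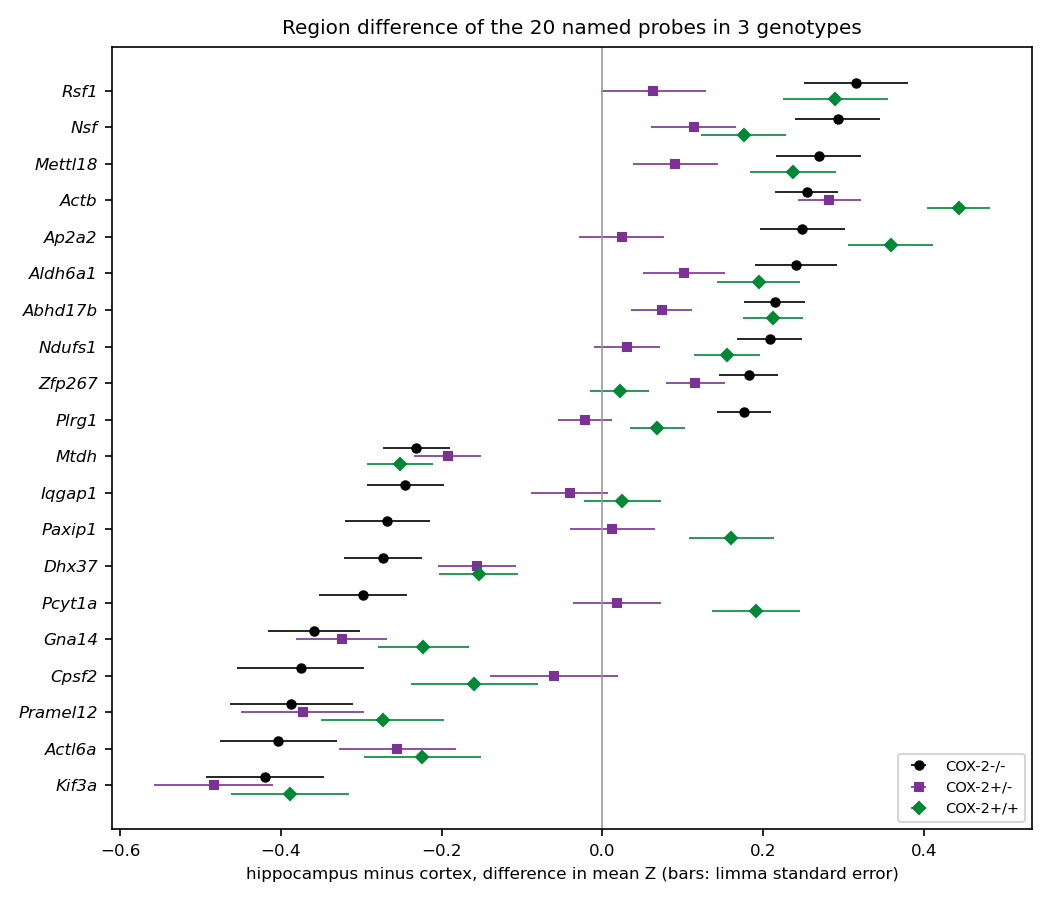
Hippocampus minus cortex difference in mean Z of the 20 named probes in COX-2-/-, heterozygous and COX-2+/+ mice, 3 arrays per region and genotype, with limma standard errors as bars. Actb, Kif3a, Gna14 and Mtdh keep their side of 0 in all 3 genotypes, and Pcyt1a, Paxip1 and Iqgap1 lie on opposite sides in COX-2-/- and COX-2+/+ mice.

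Over all tested probes the region differences of COX-2-/- and COX-2+/+ mice had almost no relation, with r of 0.0130 across 8032 probes (-0.00612 in the first 8448 rows of the table and 0.0530 in the rest). Between COX-2-/- and heterozygous mice r was 0.204, and between COX-2+/+ and heterozygous mice 0.198. After a running median over neighbouring rows was taken off each part of the table the first 2 rose to 0.286 and 0.382, and the last fell to 0.105. The running median of the COX-2-/- difference itself ranged from -0.108 to 0.214 along the table.

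A direct test of the change asked whether the hippocampus minus cortex difference of COX-2-/- mice departed from that of COX-2+/+ mice. It called 94 of 8021 probes (1.17%), 44 with a higher (0.549%) and 50 with a lower value (0.623%) in COX-2-/- mice, and 1710 (21.3%) had an unadjusted p under 0.05. In 92 of the 94 the regions differed in opposite directions in the genotypes, which picking probes by the size of the change itself favours. Over all probes tested in COX-2-/- mice 46.2% had the same sign in both genotypes. In 58 of the 94 the difference was the larger in COX-2+/+ mice. Of the 37 probes called in COX-2-/- mice, 3 (8.11%) were among the 94, and Pcyt1a is the one of them with 1 symbol. In COX-2+/+ mice Pcyt1a read 1.27, 1.25 and 1.27 in hippocampus and 1.15, 1.09 and 0.975 in cortex, the reverse of the order without COX-2, and its difference changed by -0.489 (SE 0.0771, adjusted p = 0.0221).

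Psma3, an alpha subunit of the proteasome core, read 0.757, 0.782 and 0.659 in hippocampus and 0.637, 0.520 and 0.413 in cortex of COX-2-/- mice, and 0.580, 0.506 and 0.466 against 0.749, 0.788 and 0.812 in COX-2+/+ mice. Its regions did not overlap in either genotype and their order was reversed, a change of 0.475 (SE 0.0798, adjusted p = 0.0221). A second Psma3 probe of like brightness differed by -0.0474 and 0.00903 between regions in the 2 genotypes. Ctnnd1, the cadherin-binding p120 catenin, read 0.655, 0.585 and 0.468 against 0.765, 0.836 and 0.783 without COX-2, and 0.710, 0.812 and 0.805 against 0.562, 0.534 and 0.333 with it, a change of -0.525 (SE 0.0855, adjusted p = 0.0221). Another expressed Ctnnd1 probe went the other way, at 0.0254 and -0.188. Cdca8, the chromosomal passenger protein borealin, changed by -0.545 (SE 0.0918, adjusted p = 0.0221).

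These changes lay close together in the table. Of the 94 probes 56 were within 10 rows of another of them, against 4 of the 37, and 81.9% stood in the first 8448 rows. Of the 10 named ones, 6 lay between rows 2557 and 2658. After the row correction 17 of the 94 were called, 29.4% of them higher against 46.8% before, and of the 10 named genes Pcyt1a, Ctnnd1, Psma3 and Cdca8 were, while Ddx27, Rpl23a, Ceacam15, Cyp17a1, Rc3h1 and Pcmtd2 were not. The count of 94 also fell to 0 without cortex COX-2-/- replicate 2 or 3 or wild-type hippocampus replicate 3, to 1 without wild-type hippocampus replicate 2, to 5 without wild-type cortex replicate 3, to 22 without hippocampus COX-2-/- replicate 3 and rose to 478 without hippocampus COX-2-/- replicate 1. Without wild-type cortex replicate 2, wild-type hippocampus replicate 1 or hippocampus COX-2-/- replicate 2 it was 48, 62 and 53. The unadjusted counts at the 3 settings with 0 calls were 1500, 1439 and 1518 by limma.

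**Figure D3:**
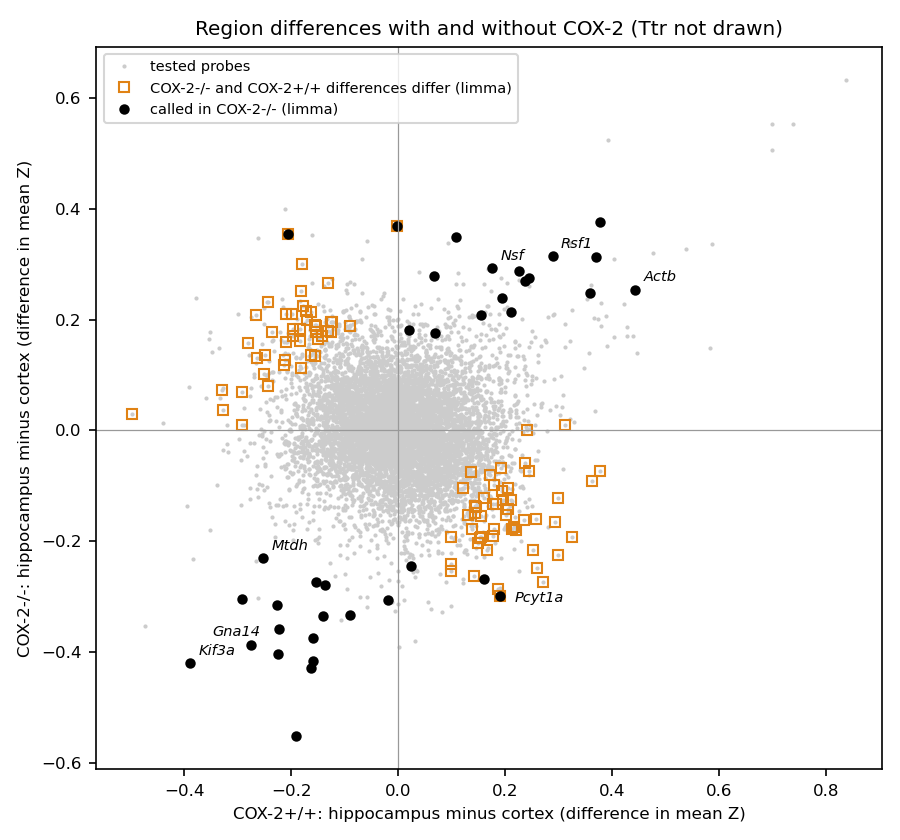
Each point is a probe expressed in the 6 COX-2-/- arrays, placed by its hippocampus minus cortex difference in mean Z in COX-2+/+ mice (horizontal) and in COX-2-/- mice (vertical). Filled points are the 37 probes called in COX-2-/- mice and squares those among the 94 whose difference changed between genotypes. Of the 94, 92 have opposite signs in the genotypes, which picking probes by that change itself favours. Ttr is not drawn.

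A second rule was adapted from the study's genotype comparisons. It asks for a mean Z above 0, a Z test P under 0.05 and a z ratio beyond 1.5 in size. Here the z ratio was the difference over the SD that the differences of all probes had (0.114), whereas the study's formula names the SD of an array, which is 1 for Z scores, and under that divisor 0 probes passed. By this rule 374 probes (4.66%) differed, 195 higher (2.43%) and 179 lower (2.23%) in hippocampus, and 199 of them carry 1 symbol. The 37 limma calls were all among them (100%), and make up 9.89% of them. Of the 374, 46.3% had the same sign in COX-2+/+ mice, which is the share found over all tested probes (46.2%), and 62.8% had it in heterozygous mice (53.6% over all). After the row correction the rule gave 321 probes, 215 of them among the 374. Within 10 rows of another such call lay 223 of the 374, and 278 (74.3%) stood in the first 8448 rows, which hold 48.5% of the tested probes and 73% of the limma calls.

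Gene groups were then counted by 1 probe per gene, the brightest. Of the genes named for this rule, 11 lost their call after the row correction, namely Chrna5, Calr, Acly, Dhcr7, Dclk2, Fzd7, Arpc2, Hsp90aa1, Kcnh3, Slc16a3 and Hspa8, and Pdk3 had no corrected value. Over all 3879 tested genes 49.4% had a positive difference, the median was -0.00102 and 4.23% met the rule. Ribosomal proteins of the cytosol were the largest group, with 61 genes tested, 38 positive and 23 negative, and a median of 0.0470. The rule took 1 in each direction, Rpl7 at 0.193 and Rpsa at -0.190, and a dimmer probe of Rpl31 at -0.259, while limma took none. Of 41 subunits of oxidative phosphorylation, 24 were positive with a median of 0.0284, and Ndufs1 was the only one past the rule or limma. Of 25 proteasome genes 14 were positive, and Psmd1, a base subunit of the regulatory particle, met the rule at 0.210.

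Chaperones went both ways. Of 30 genes 16 were positive, with a median of 0.0131. The endoplasmic reticulum chaperones Calr, calreticulin, and Hsp90b1 met the rule at 0.20 and 0.207, and Dnaja1, a cochaperone of the heat shock 70 family, and Cct6a, a subunit of the chaperonin ring, met it at -0.256 and -0.229. Hsp90b1 read 0.498, 0.410 and 0.484 in hippocampus against 0.316, 0.182 and 0.273 in cortex, without overlap, and had a limma adjusted p of 0.0668. Dimmer probes of Hsp90aa1, Hspa8 and Hspd1 met the rule at 0.20, 0.194 and -0.231, though the brightest probe of each was at 0.0201, -0.0750 and 0.0167.

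Synaptic and signalling lists held few tested genes, and their counts stand beside the 4.23% of all tested genes that met the rule. Of 10 vesicle release genes 7 were positive, and Nsf alone passed, while Snap25, Sv2a and the rest did not. Of 28 cytoskeletal genes 14 were positive and 14 negative, with Kif3a lower and Arpc2, a subunit of the actin-nucleating Arp2/3 complex, at 0.192 past the rule. Among 18 calcium sensors and effectors only Gap43, the growth cone protein, met it, at -0.178, and so did a dimmer probe of the doublecortin-like kinase Dclk2, at -0.190. Of 6 ion channels Kcnh3, a voltage-gated potassium channel, met it at 0.188, and Chrna5, the only tested receptor gene of its list, at 0.173. In Wnt signalling, 2 of 7 genes did so, the ligand Wnt2 at -0.213 and the receptor Fzd7 at -0.187. Fzd7 read 0.369, 0.326 and 0.324 against 0.514, 0.491 and 0.576, without overlap. Among 17 genes of proliferation and neurogenesis Jag1, a Notch ligand, met it at 0.182, and none of 17 axon guidance genes or 10 nuclear receptor genes did.

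**Figure D4:**
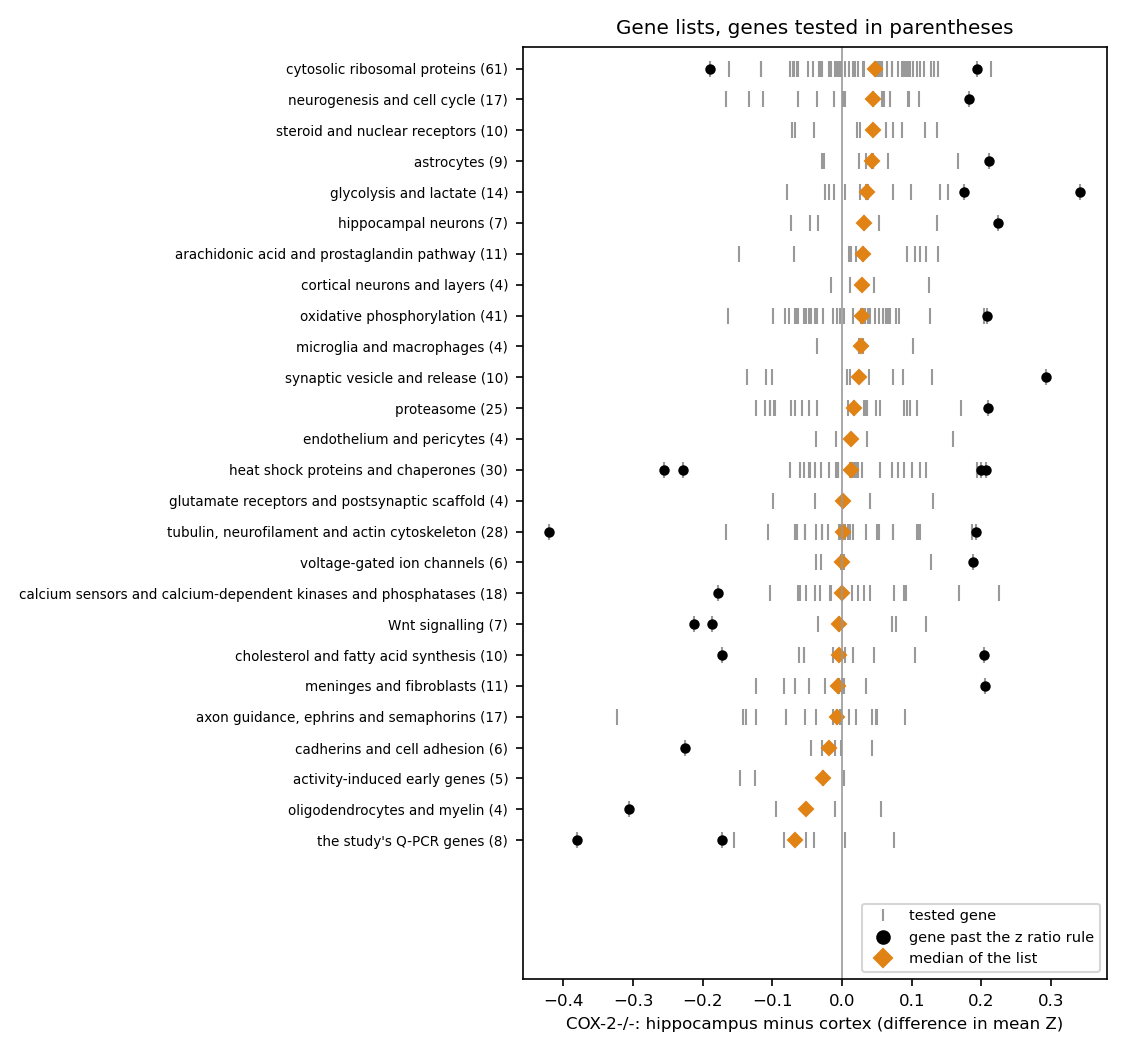
Hippocampus minus cortex difference in mean Z without COX-2 for every tested gene (ticks) of the lists with 4 or more tested genes, with list medians as diamonds and genes past the z ratio rule as filled circles; the Q-PCR list includes the normalizer Pgk1. The medians lie between -0.0675 and 0.0470, and no list has more than 4 genes past the rule.

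In the arachidonic acid pathway, in which COX-2 acts, no tested gene was called. Over all 3879 tested genes limma called 7 higher and 8 lower, and 4.23% met the rule, so a list of this size would hold few calls. Of 38 listed genes 17 have a probe and 11 were tested. Of these 9 were positive, beside 49.4% of all tested genes, with a median of 0.0304 and a range of -0.148 to 0.138. The phospholipases that release arachidonic acid differed by 0.0125 (Pla2g4a), 0.112 (Pla2g6) and 0.0304 (Pla2g15), and the prostaglandin E synthases by 0.0936 (Ptges) and 0.121 (Ptges3). Prostacyclin synthase Ptgis differed by -0.0689, the prostaglandin receptor gene Ptger2 by -0.148 and Ptgfrn, a receptor-associated protein, by 0.138. In the leukotriene and lipoxygenase branch Alox5ap differed by 0.0102, Lta4h by 0.0201 and Alox12 by 0.104. Limma's adjusted p ran from 0.140 to 0.925 over the 11.

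Of 7 tested genes that the study followed by Q-PCR, 2 met the rule, both lower in hippocampus. The study chose its Q-PCR genes from array differences, and reported both of these as higher in COX-2-/- than in wild-type cortex. That choice by itself favours a higher cortex value here. Mat2b, the regulatory subunit of methionine adenosyltransferase, read -0.0924, -0.186 and -0.0242 in hippocampus and 0.289, 0.316 and 0.234 in cortex. Every hippocampus array was under 0, so the probe passed the expression limit through cortex alone. The groups were far apart, with a difference of -0.380 (SE 0.0915) that met the rule at a z ratio of -3.35 but not limma (adjusted p = 0.0668). In COX-2+/+ mice it was 0.0315, and the change between genotypes was -0.412 (adjusted p = 0.101). Acly, which makes cytosolic acetyl coenzyme A from citrate, met the rule at -0.172, with an adjusted p of 0.137, against 0.145 in COX-2+/+ mice. The brightest probes of Jak1 and Jak2 differed by 0.0738 and -0.0402, those of Slc6a13, Hsd17b10, Acat1 and Pgk1 by -0.0832, -0.0517, -0.155 and 0.00437 (Pgk1 being the gene used for normalization), and none of these passed. Ahcy was under the expression limit, at -0.00837. In nearby metabolism Dhcr7, the last enzyme of cholesterol synthesis, met the rule at 0.204, the monocarboxylate transporter Slc16a3 at 0.342 and the kinase of pyruvate dehydrogenase Pdk3 at 0.175. Every cortex array of Dhcr7 was under 0, so its probe passed the expression limit through hippocampus alone.

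Markers of other cell types were counted as well. In tissue pieces, fewer cells of a type and less RNA per cell cannot be told apart. Averaged over 9 astrocyte genes the mean Z was 1.07 to 1.15 on the hippocampus arrays and 1.03 to 1.06 on the cortex arrays, and over 4 oligodendrocyte genes it was 0.351 to 0.439 against 0.459 to 0.514, so neither pair of ranges overlapped. Without Enpp6 the oligodendrocyte genes gave 0.456 to 0.520 against 0.490 to 0.517, which overlap, and the list's median difference was -0.0524 here, 0.00976 in COX-2+/+ and 0.0512 in heterozygous mice. The astrocyte ranges nearly met, at 1.07 and 1.06, and were not taken again without Cst3, the list's highest difference at 0.211. Their median difference was 0.0429 here, 0.0855 in COX-2+/+ and 0.00379 in heterozygous mice. Of the genes in these lists Cst3 was higher and Enpp6, a lipid phosphodiesterase of newly formed oligodendrocytes, lower by the rule (-0.306). The matrix protein Sparc met it on a dimmer probe at 0.184 and the meningeal retinoic acid enzyme Aldh1a2 at 0.205. Of the 11 tested genes of meninges and fibroblasts, though, 3 were higher in hippocampus and 8 lower, with a median of -0.00622. Ranges overlapped for microglia, endothelium, meninges and blood, no interneuron gene was found on a probe with 1 symbol, and the part of these cells in the differences was not tested.

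The largest difference of all expressed probes belonged to Ttr, transthyretin, the thyroid hormone carrier that the choroid plexus secretes. It lies outside the naming rule and was chosen after its values were seen. Ttr read 2.01, 2.17 and 0.247 on the hippocampus arrays and 0.223, 0.447 and 0.237 on the cortex arrays, so replicates 1 and 2 of hippocampus were high and replicate 3 was at the level of cortex. The difference was 1.17, or 1.79 without hippocampus replicate 3, and it did not pass limma (SE 0.536, adjusted p = 0.287) or the rule (Z test P of 0.0586). In COX-2+/+ mice the hippocampus arrays read 2.36, 1.97 and 0.402 and the cortex arrays 0.212, 0.170 and 0.215. Heterozygous mice gave 0.833, 1.90 and 0.246 against 0.30, 0.186 and 1.59. In each genotype 2 hippocampus arrays were well above replicate 3, and 1 cortex array of the 9, heterozygous replicate 3, was high. The other expressed genes of the choroid plexus and ependyma list, Igf2 and Ccdc153, differed by 0.0186 and 0.0352, the list of 3 expressed genes averaged 0.404 to 1.10 in hippocampus and 0.432 to 0.504 in cortex, and Otx2, under the expression limit, by 0.133.

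After Ttr, 5 expressed probes were higher in hippocampus by more than 0.5, and 2 of them carry 1 symbol, Rab18, a small GTPase of lipid droplets, and Bag6, a chaperone of membrane proteins, also named here for their values. Rab18 read 1.86, 1.84 and 0.650 against 0.769, 0.913 and 0.769, and Bag6 read 0.675, 0.816 and 0.145 against -0.0531, 0.121 and -0.00730. Both were high on the 2 arrays where Ttr was high. The differences were 0.633 and 0.525, with limma adjusted p of 0.350 and 0.153, and Bag6 met the rule. In the other direction 1 probe passed that size, a called probe with no symbol at -0.552. The 5 probes that were higher all lie a multiple of 22 rows from Ttr, as do 3.92% of the other tested probes. What that spacing and the Ttr signal contributed was not tested.

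**Figure D5:**
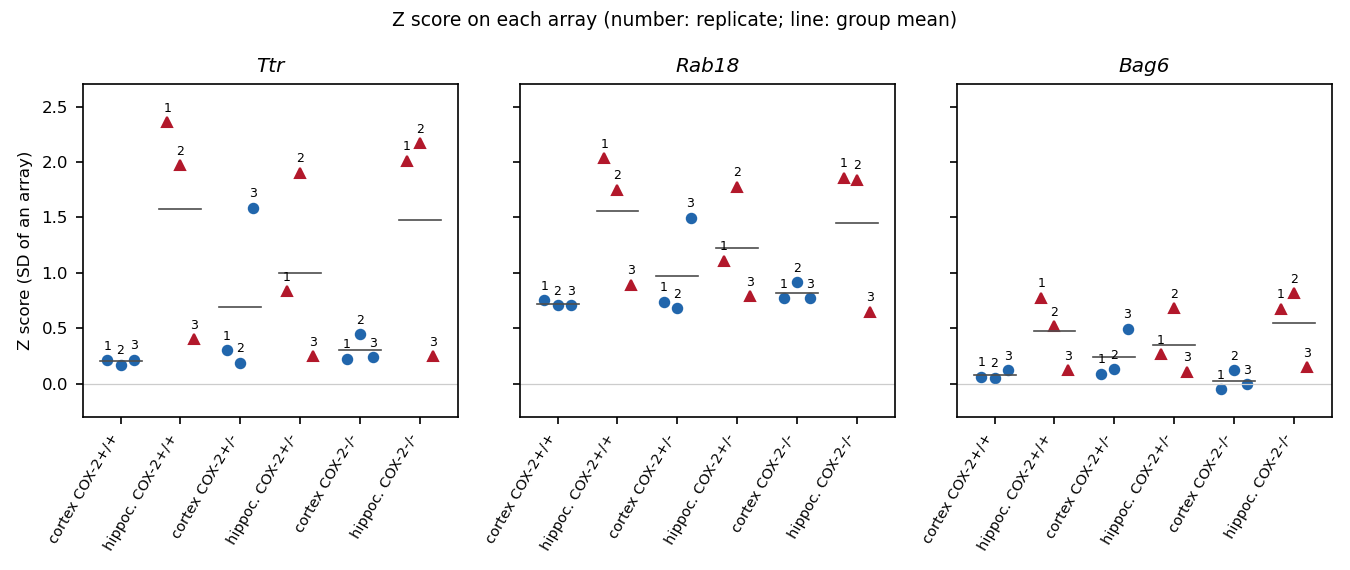
Z score of Ttr, Rab18 and Bag6 on each array of the COX-2 line, cortex as circles and hippocampus as triangles, with replicate numbers and group means as lines. In all 3 panels hippocampus replicates 1 and 2 without COX-2 and cortex replicate 3 of heterozygous mice stand above hippocampus replicate 3 without COX-2.

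No activity-induced early gene passed a test, beside 4.23% of all tested genes past the rule. Of 5 tested genes 4 were negative, with a median of -0.0274. Of the 8 under the expression limit, Egr1, the zinc finger factor used as a marker of neuronal activity and of cortical layers, was picked out after its values were seen. It read -0.365, -0.326 and -0.229 in hippocampus and -0.181, -0.0834 and 0.0961 in cortex, with no overlap, a difference of -0.251 (SE 0.0808). In COX-2+/+ and heterozygous mice the differences were -0.242 and -0.309. Atf3, a stress-induced factor also under the limit, differed by 0.201 the other way. Neither entered the test.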

How the data were processed

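Total RNA of the hippocampus and cerebral cortex was reverse transcribed with a radiolabelled nucleotide and hybridised to nylon cDNA membranes by the authors, who read the membranes with a phosphoimager and turned natural log intensities into Z scores. The deposited values are these scores, with a column for each array. The first 8448 rows and the rest were standardised separately. Gene symbols are those of the platform annotation, and 9641 of the 9663 single symbols were found in RefSeq by gene ID, each unchanged. No depth applies to arrays, and the number of arrays limits the precision.

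The 18 arrays of the COX-2 line entered a linear model of group means (limma 3.58.1, R 4.3.3) with eBayes moderation, and p-values were adjusted by Benjamini-Hochberg across expressed probes. The 12 COX-1 arrays were left out of it. The second call rule and the contrast between genotypes are described with their results. Scripts were tested on simulated data. Figures were drawn with matplotlib 3.10.9 in Python 3.11.15.

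Named genes were, among probes with 1 symbol, up to 12 with the largest positive and up to 12 with the largest negative difference among limma calls without overlap, called members of the gene lists, the Q-PCR genes, genes with all probes called, and up to 10 calls of the genotype contrast by smallest p. Members and lists were chosen with earlier results of these data known. Alternatives were median centring, quantile normalization, other filters and thresholds, other sets of arrays, an intensity trend, a replicate block, a row order correction and leaving out each array. Array weights and the parts of the table alone were added after the data were seen.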

Additional observations from a re-analysis of the deposited data

Results flagged for a closer look

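The region difference differed between COX-2-/- and COX-2+/+ mice for 94 probes by limma's test of the difference itself. The 10 named genes were picked by the smallest p of that same test. Of these only Pcyt1a, Ctnnd1, Psma3 and Cdca8 stayed called after the row correction, and the calls depended on single arrays, as given above. In the order COX-2-/- minus COX-2+/+, the hippocampus minus cortex difference changed by 0.403 for Ddx27, a helicase of ribosomal RNA processing, by -0.489 for Pcyt1a, by -0.525 for Ctnnd1, by 0.475 for Psma3 and by -0.545 for Cdca8. It changed by -0.397 for Rpl23a, a ribosomal protein, by 0.361 for Ceacam15, an adhesion family member, by 0.324 for Cyp17a1, a steroid hydroxylase, by -0.451 for Rc3h1, an RNA-binding ubiquitin ligase, and by 0.321 for Pcmtd2. Ddx27, which lost its call after the row correction, read 0.371, 0.377 and 0.339 in hippocampus and 0.313, 0.290 and 0.262 in cortex without COX-2. In COX-2+/+ mice it read 0.0971, 0.0851 and 0.0539 against 0.467, 0.440 and 0.317, so the order of the regions turned. Adjusted p were 0.0221 to 0.0334 over the 10. No explanation of these changes was tested. Outliers within a group were not sought, since each group has 3 arrays.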

How the results depend on the processing

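Limma called 37 probes in COX-2-/- mice. Median centring gave 42 (35 of the 37 among them), quantile normalization 37 (33), a mean Z above 0.5 28 (20), an unmoderated model 42 (25) and the first part of the table alone 25 (25). Other settings moved the count: 79 without the filter, 63 with all arrays but those of COX-1 cortex, 117 with an intensity trend, 119 after the row order correction (33 of the 37 among them), 17 with array weights, 20 in the second part alone and 0 with the 6 arrays alone. Leaving out 1 array gave 0 to 290. The share of calls that were higher in hippocampus was 48.6%, 58.7% with all arrays but those of COX-1 cortex, 39.3% at a mean Z above 0.5, 35.3% with array weights, 0% of the 2 calls with the replicate block and 56.9 to 100% when an array was left out and calls were made. For the change between genotypes the count of 94 became 298 without the filter, 32 at a mean Z above 0.5, 0 with only the arrays compared (1404 at an unadjusted limma p under 0.05), 152 with all arrays but those of COX-1 cortex, 272 with the trend, 17 after the row correction and 56 with array weights, and leaving out 1 array gave 0 to 478. The share higher was 46.8%, and 29.4% after the row correction. The z ratio rule gave 374 probes, and 1055 without the filter, 190 at a mean Z above 0.5, 113 at a z ratio beyond 2, 0 with the SD of an array as divisor and 238 with an adjusted Z test P. Leaving out 1 array gave 282 to 478. Some settings hold fewer probes or arrays, and the causes of these shifts were not tested.

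With the replicate number as a block, limma called 2 probes in COX-2-/- mice and 0 in the genotype contrast (1260 and 1622 at an unadjusted p under 0.05), and the rule called 371. The labels do not give a pairing by number. Same-numbered arrays deviated together with r of 0.144, -0.102 and 0.184, and hippocampus replicate 2 deviated more with cortex replicate 1 than with its own number.

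No direction of a named gene reversed in any setting. For the probes named as limma calls this was fixed in advance where an array was left out, since naming asked for groups without overlap. Signal limits the reading of Mettl18, Plrg1, Paxip1 and Zfp267, whose mean Z lay near 0.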
